A study of Mus musculus with 12 samples.

Results

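The clustered protocadherins are 3 neighbouring families of cell surface genes, here taken as every row of the deposited tables whose symbol is Pcdha, Pcdhac, Pcdhb, Pcdhga, Pcdhgb or Pcdhgc followed by a number. The rule found 58 genes of 24279 in the table. There were 14 in the alpha cluster, 22 in the beta cluster and 22 in the gamma cluster, the last made of 12 gamma A, 7 gamma B and 3 C-type genes. Of these, 54 had enough counts to be tested: 11 alpha, 21 beta and all 22 gamma genes. Pcdha1, Pcdha8, Pcdhac1 and Pcdhb1 did not pass.

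Polyadenylated RNA was measured in primary mouse embryonic fibroblasts, connective tissue cells put into culture from embryos at embryonic day 12.5. The cells were wild type or homozygous for a changed allele of Rsg1 (Rsg1L3P/L3P), a gene for a small GTPase-like protein of primary cilia. The mice, of the F3 generation, ate 2 ppm folic acid (moderate) or 10 ppm (fortified), and the cells grew in medium with 225 or 3600 ng/mL folic acid to match. Diet and medium changed together and cannot be told apart. Each of the 4 groups (moderate wild type, moderate mutant, fortified wild type, fortified mutant) held 3 libraries. Nothing in the labels says that these came from separate embryos or litters, so the spread between them may be partly technical.

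Clustered protocadherins are adhesion proteins of the cadherin superfamily, known best from neurons, where each cell uses a different mixture of them and like mixtures recognise each other. In the alpha and gamma clusters each gene is a variable exon with its own promoter, spliced to constant exons that all genes of the cluster share. Beta genes have a variable exon alone. Promoters are chosen with the help of the looping proteins CTCF and cohesin and are held back by DNA methylation and by the chromatin protein Smchd1, whereas the C-type genes at the end of the alpha and gamma clusters follow other rules and are used more uniformly. Outside neurons some members, Pcdhgc3 above all, are broadly expressed.

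On the genome build GRCm38 (mm10), with GENCODE M21 annotation, the names of 57 of the 58 genes were matched, that of Pcdha10 being the exception. They lay on the plus strand of chromosome 18 within 911690 bases. The alpha cluster ran from 36930184 to 37187661, the beta cluster from 37264938 to 37524479 and the gamma cluster from 37661793 to 37841873. Slc25a2 and Taf7 lay between beta and gamma. The 13 matched alpha genes shared constant exons of 59, 89 and 2712 bases, and the 22 gamma genes shared exons of 59 and 89 bases and a last exon of 1971 or 1968 bases. The annotation lists Pcdhgb8 as a polymorphic pseudogene.

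Because of these shared exons, a read from a constant exon does not say which gene it came from, and the authors' estimation divided such reads among the members. The median share of a gene's 31-base words found in no other member was 37.3% in alpha, 53.6% in gamma and 88.2% in beta. All alpha and gamma values above 0 were not whole numbers (tolerance 0.0005), against 44.0% of beta values and 37.4% of values of all genes. Single alpha and gamma members are therefore less certain than beta members, and members of a cluster are not independent of each other. The sum over a cluster does not depend on how reads were divided among its own members, but can depend on reads shared with rows outside it. A separate row named Pcdha7-g, outside the rule and the sums, held 0 to 23.2 estimated counts, the highest in fortified wild type 3 beside an alpha sum of 338 there. Another row outside the rule, Gm37013, starts at 36969916 within the alpha cluster, and its counts were not examined.

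The 12 libraries held 39339190 to 48475963 estimated counts. Rsg1 stood at 0.488 to 1.12 CPM (counts per 1000000), which does not check the allele, since the labels name no loss of its RNA. The summed level of 15 fibroblast markers was 14566 to 48655 CPM, and each of the 15 was above 1 CPM in at least 3 libraries. Replicate 1 of moderate wild type and replicates 2 and 3 of fortified mutant stood apart: the sum of 20 neuron markers was 735, 626 and 438 CPM in them, against 188 to 307 CPM in the other 9. The sum of 20 skeletal muscle markers was 4452, 5826 and 3851 CPM there, against 899 to 3303 CPM elsewhere. For 14 neural progenitor and glia markers the sum was 1002, 946 and 838 CPM there, against 296 to 735 CPM. For 10 epithelium markers it was 71.5, 76.9 and 65.7 CPM, against 16.8 to 63.6 CPM. Xist, which marks female cells, was at 431 to 892 CPM in all 6 mutant libraries and at 879 and 727 CPM in replicate 1 of each wild type group, but at no more than 0.207 CPM in the other 4 wild type libraries, so embryo sex and genotype are partly confounded.

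Fibroblasts used the gamma cluster most and the alpha cluster least. TPM, transcripts per 1000000 transcripts, corrects for length and allows levels of different genes to be compared. Pcdhgc3, a C-type member that is known to bind the Wnt pathway protein Axin1, had a mean of 110.8 TPM ± 27.8 (SD, 12 libraries), and made up 53.4% of the gamma cluster's TPM (48.8 to 58.7% in single libraries). The next gamma genes were Pcdhgb6 (8.14 TPM ± 1.73) and Pcdhgb5 (7.36 TPM ± 2.11), and their difference was smaller than their spread. The other 19 gamma genes had means from 1.37 TPM (Pcdhgc4, a C-type member that supports neuron survival) to 6.69 TPM (Pcdhga10). The mean of every alpha gene was below that of the lowest gamma gene.

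In the beta cluster Pcdhb17 led with 6.42 TPM ± 1.43, which was 17.9% of the cluster. It was followed by Pcdhb22 (4.96 TPM ± 1.31) and Pcdhb20 (2.76 TPM ± 0.705). The 18 other beta genes with counts had means from 0.341 TPM (Pcdhb12) to 2.35 TPM (Pcdhb7). Pcdhb1 had 0 counts in all 12 libraries.

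In the alpha cluster Pcdhac2, a C-type member known for the spacing of serotonergic axons, had 1.27 TPM ± 0.553 and made up 40.7% of the cluster. Pcdha12 (0.480 TPM ± 0.237) and Pcdha5 (0.238 TPM ± 0.166) came next. Pcdhac1, the other C-type alpha gene, had at most 4.29 estimated counts in a library and was at 0 in 4 of the 12. Alpha levels are close to the floor, so folds of single alpha genes are poorly determined.

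**Figure D1:**
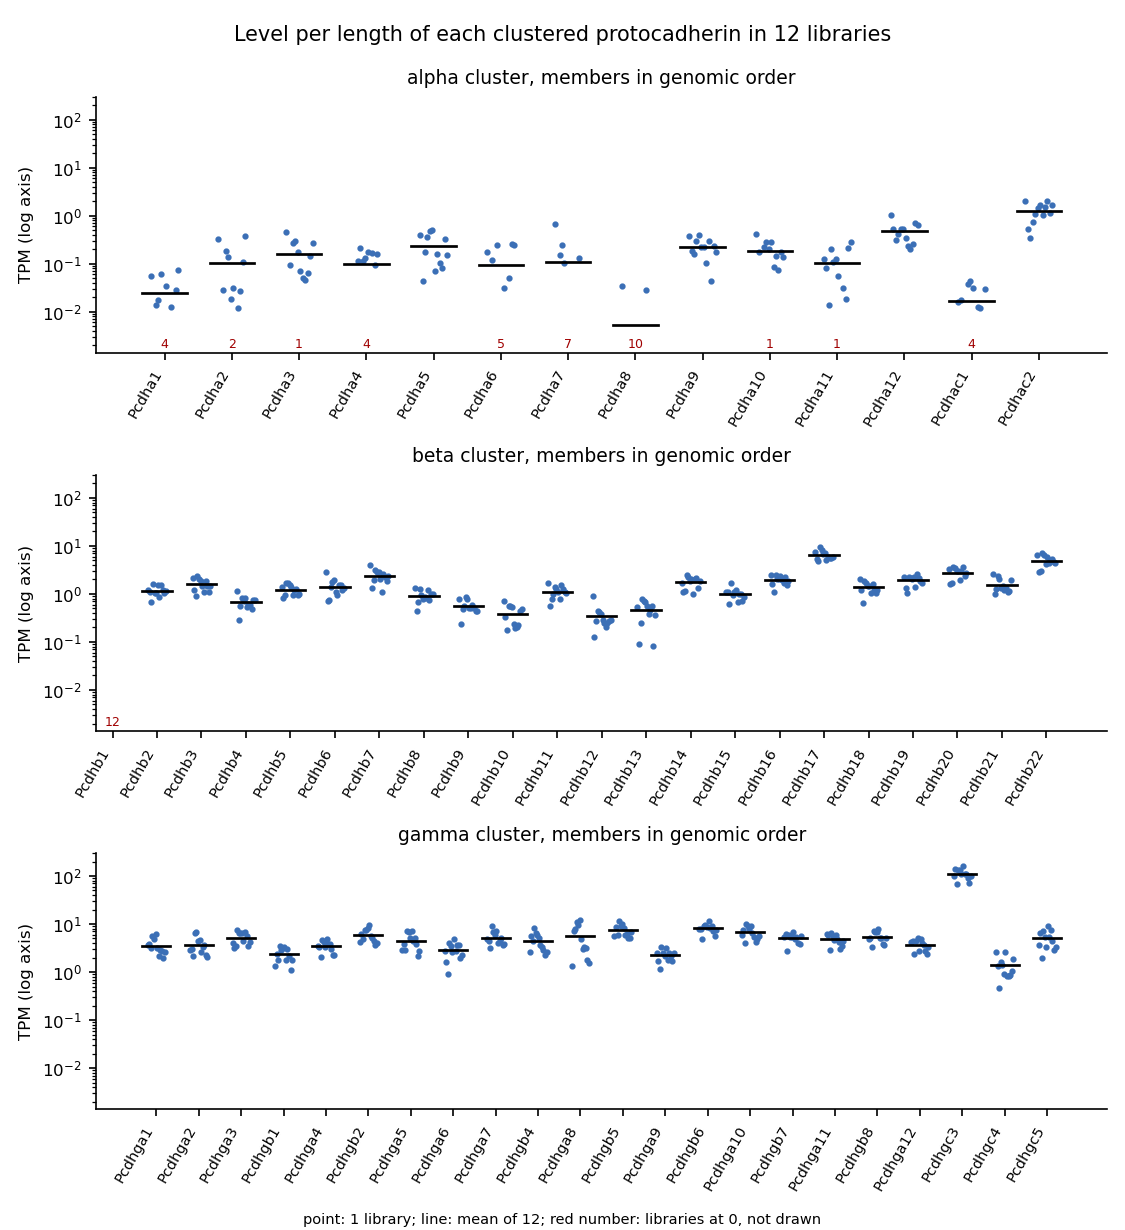
TPM of each clustered protocadherin on a log axis, with members in genomic order, a point for each of the 12 libraries with a value above 0 and a line at the mean. Pcdhgc3 stands above every other member with a mean of 110.8 TPM, most gamma genes lie between 1.37 and 8.14 TPM, and most alpha genes lie below 1 TPM with several libraries at 0 (red numbers).

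Summed over the gamma cluster, mutant libraries had the higher mean at moderate folic acid and the lower one at fortified folic acid. The summed level in moderate wild type libraries was 379, 534 and 354 CPM, and in moderate mutant libraries 546, 515 and 482 CPM, which overlapped. In fortified wild type libraries it was 660, 524 and 512 CPM, and in fortified mutant libraries 434, 359 and 431 CPM, all below the wild type. The group means were 422 CPM ± 97.5 (SD, n = 3), 514 ± 32.0, 565 ± 82.0 and 408 ± 42.7 in that order. The log2 ratio of mutant to wild type was 0.28 at moderate and -0.47 at fortified folic acid. The first was 0.45 in TPM, 0.17 when replicate 3 of moderate wild type was left out and 0.49 when replicate 2 was. The TPM scale also raised the median log2 fold change of all tested genes in that comparison. It went from -0.05 to 0.12 by limma on log2(TPM + 1) and 0.17 on log2(TPM + 0.1). No test is given for a sum over chosen members.

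The gamma A genes, the A-type variable exons, separated the groups at both folic acid levels. Their sum was 92.8, 109 and 95.3 CPM in moderate wild type and 156, 141 and 135 CPM in moderate mutant libraries. It was 151, 119 and 123 CPM in fortified wild type and 109.5, 85.8 and 91.4 CPM in fortified mutant libraries. The mutant libraries thus lay wholly above the wild type at moderate folic acid (log2 ratio 0.54) and wholly below it at fortified folic acid (-0.46). Unlike the sum of the whole cluster, the sum of a gamma subtype can depend on how reads of the shared exons were divided.

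The gamma B genes, the B-type variable exons, showed the same arrangement. Their sum was 64.9, 91.6 and 72.7 CPM in moderate wild type and 103, 92.6 and 100.2 CPM in moderate mutant libraries. It was 117, 93.4 and 92.4 CPM in fortified wild type and 75.1, 66.6 and 80.9 CPM in fortified mutant libraries. Again neither pair of groups overlapped (log2 ratios 0.37 and -0.44), although moderate wild type 2 lay close under the lowest moderate mutant library. The C-type gamma genes overlapped at moderate folic acid (log2 ratio 0.14) and not at fortified folic acid (-0.48).

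Without the 3 libraries that stood apart, the log2 ratios of gamma A were 0.50 and -0.26 and those of gamma B were 0.26 and -0.43. Fortified mutant 1 was then the only library of its group, and it lay below all 3 fortified wild type libraries for both sums. Across the alternatives of scaling and of leaving out single libraries, the ratio of gamma A ran from 0.48 to 0.72 at moderate and from -0.56 to -0.34 at fortified folic acid. The 0.72 was in TPM, a scale on which the median of all tested genes also rose. The summed fibroblast markers also differed between groups: 14566 to 27985 CPM in moderate wild type, 24470 to 26052 in moderate mutant, 37919 to 48655 in fortified wild type and 22262 to 29801 in fortified mutant libraries. Fewer cells of a type and less RNA per cell cannot be told apart in such bulk samples, and the part of cell makeup in the gamma levels was not tested.

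**Figure D2:**
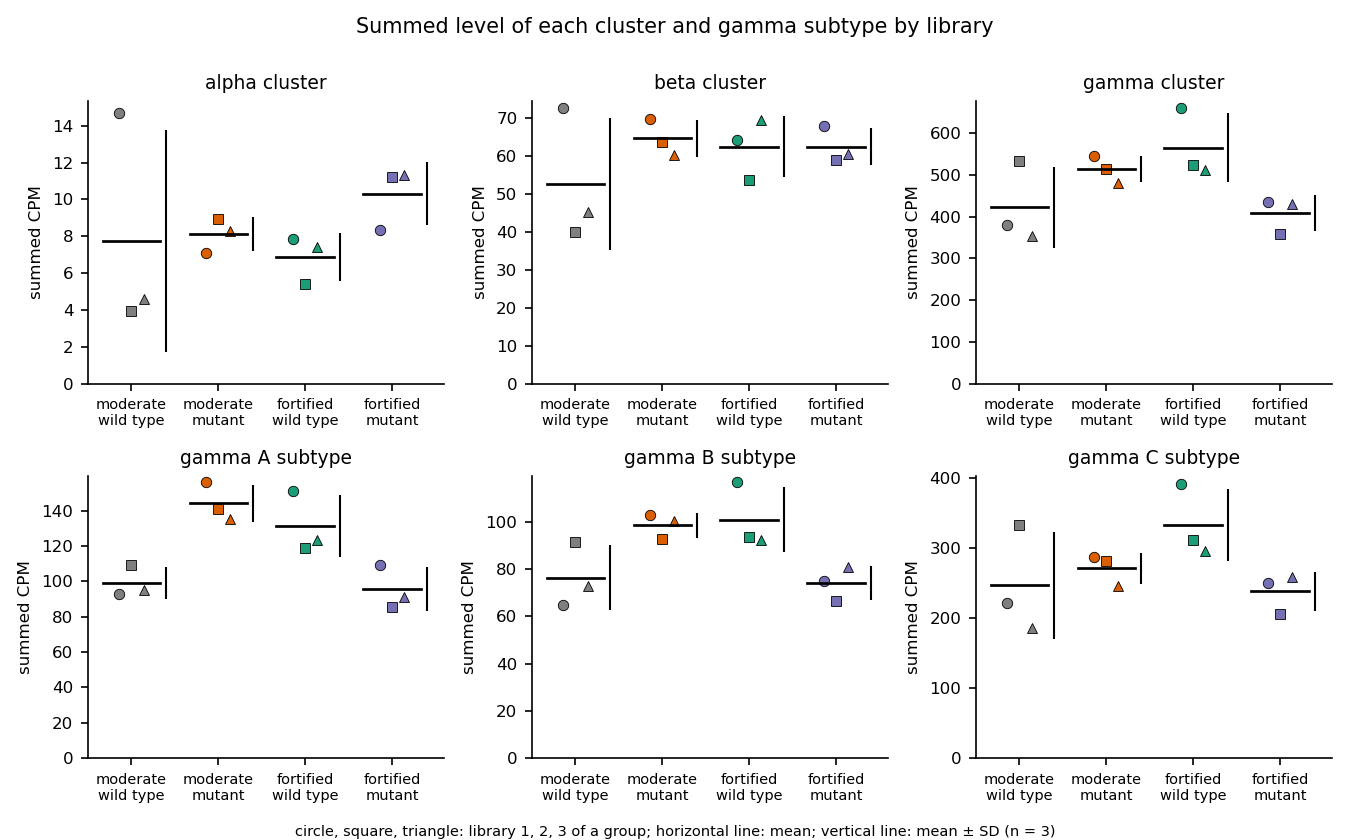
Summed CPM of the alpha, beta and gamma clusters and of the gamma A, gamma B and C-type gamma genes by library, with group means (horizontal lines) and SDs (vertical lines, n = 3). Gamma A and gamma B are higher in moderate mutant than in moderate wild type libraries and lower in fortified mutant than in fortified wild type libraries, whereas beta overlaps throughout on this scale.

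No single member passed the test of genotype at either folic acid level. At moderate folic acid 20 of 22 gamma genes had a positive log2 fold change of mutant against wild type (median 0.44), against 43.6% of all tested genes (median -0.05). In 11 of them every mutant library lay above every wild type library, which held for 6.34% of all tested genes in that direction. Over the 3 clusters 14 members were apart and all were higher, beside 13.0% of all genes in either direction and 6.68% lower. By edgeR's quasi-likelihood test 0 of 54 members passed an adjusted p of 0.05, as did 0% of all tested genes. At an unadjusted p of 0.05, 7 members did, all gamma, beside 7.87% of all genes. DESeq2 called 0 members and 0.290% of all genes.

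Pcdhga2, a gamma A gene, had the smallest p of the gamma cluster at moderate folic acid. It was at 5.97, 6.58 and 5.53 CPM in wild type and at 12.6, 13.3 and 9.18 CPM in mutant libraries. The groups did not overlap, with a log2 fold change of 0.95 (SE 0.274) and an adjusted p of 0.588 by edgeR.

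At fortified folic acid all 22 gamma genes had a negative log2 fold change of mutant against wild type (median -0.45), against a median of 0.01 over all tested genes, 51.0% of which were positive. In 9 of them the mutant libraries lay wholly below the wild type, as in 5.62% of all tested genes (10.3% in either direction). Here too 0 of 54 members and 0% of all genes passed by edgeR. At an unadjusted p of 0.05 there were 11 members (7 gamma and 4 alpha), beside 3.29% of all genes, and DESeq2 called 0 members and 0.0363% of all genes. The alpha genes mostly went the other way from gamma, with 8 of 11 tested positive (median 1.08). Without the 3 libraries that stood apart the alpha median was 0. With Xist as a covariate, 18 of 22 gamma genes were positive at moderate and 0 of 22 at fortified folic acid. Without the 3 libraries that stood apart, 22 of 22 gamma genes were positive at moderate and 3 of 22 at fortified folic acid.

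Pcdhga5, also of the A type, had the smallest gamma p at fortified folic acid. Its levels were 15.7, 11.3 and 12.4 CPM in wild type and 9.72, 5.74 and 6.63 CPM in mutant libraries (log2 fold change -0.84, SE 0.250, adjusted p 0.939 by edgeR). At moderate folic acid the order was turned round, with 5.82, 8.18 and 7.23 CPM in wild type and 13.6, 13.3 and 10.7 CPM in mutant libraries (0.82, SE 0.250, adjusted p 0.588). Neither pair of groups overlapped.

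The interaction tests whether the difference between mutant and wild type cells itself differs between the folic acid levels. It was negative in 21 of 22 gamma genes, with a median of -0.91 against 0.04 over all tested genes. By edgeR 0 of 54 members passed, as did 0% of all genes, and the lowest adjusted p of a member was 0.708. At an unadjusted p of 0.05 there were 14 members (13 gamma and 1 alpha), beside 6.68% of all genes. DESeq2 called 0.0259% of all genes and 1 member, Pcdhga5 (-1.66, SE 0.346, adjusted p 0.0159), whose edgeR value was -1.66 (SE 0.353, adjusted p 0.708). It is named here because of that call, after its values were seen. As gamma members share reads of the same constant exons, their signs are not independent.

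**Figure D3:**
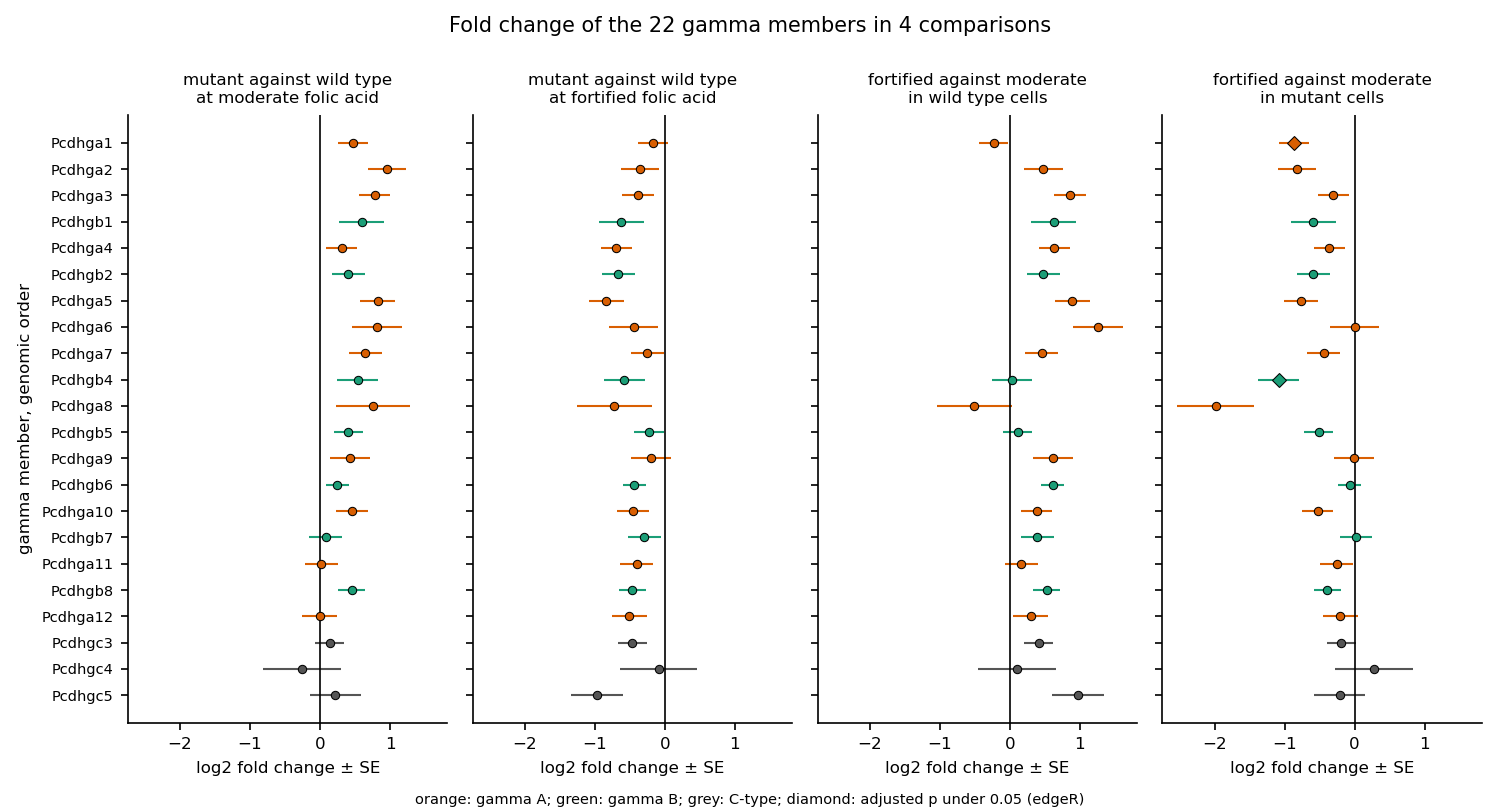
Log2 fold change with its SE for the 22 gamma members in genomic order, in 4 comparisons. Points lie mostly right of 0 for mutant against wild type at moderate folic acid (20 of 22) and left of 0 at fortified folic acid (22 of 22); the diamonds mark Pcdhga1 and Pcdhgb4 in mutant cells, which passed by edgeR.

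Between folic acid levels, the gamma genes were mostly higher in fortified wild type cells and mostly lower in fortified mutant cells. These 2 comparisons share no library with each other, but each shares its libraries with the genotype comparisons above. In wild type cells 20 of 22 gamma genes had a positive log2 fold change of fortified against moderate (median 0.47), against 46.8% of all tested genes (median -0.04). In 8 gamma genes the fortified libraries lay wholly above, beside 11.0% of all genes, and in 1 (Pcdhga1) wholly below, beside 9.67% (20.6% in either direction). By edgeR 0 of 54 members passed, beside 0.0263% of all genes, and 9 members (7 gamma and 2 alpha) had an unadjusted p under 0.05, beside 19.6%. Of the 11 tested alpha genes 2 were positive (median -1.08), and without the 3 libraries that stood apart the alpha median was 0.01. DESeq2 called 5 members, all higher: Pcdhga3, Pcdhga4, Pcdhga5, Pcdhga6 and Pcdhgb6, where it called 7.77% of all genes. Without moderate wild type 1, edgeR called 2 members, Pcdhac2 and Pcdhga6.

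Pcdhga3, of the A type, had the smallest gamma p in wild type cells. It was at 8.31, 6.94 and 9.13 CPM in moderate and at 15.1, 11.8 and 17.4 CPM in fortified libraries, which did not overlap. The log2 fold change was 0.86 (SE 0.225), with an adjusted p of 0.0893 by edgeR and 0.00634 by DESeq2.

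In mutant cells 3 of 22 gamma genes had a positive log2 fold change of fortified against moderate (median -0.37), against 53.0% of all tested genes (median 0.04). In 10 gamma and 4 beta genes the fortified libraries lay wholly below, beside 18.5% of all genes, and in 1 alpha gene wholly above, beside 19.6% (38.2% in either direction). By edgeR 2 of 54 members passed, both lower, beside 6.93% of all genes in either direction, 2.74% lower and 4.19% higher. At an unadjusted p of 0.05 there were 8 members, all gamma, beside 25.6% of all genes. Both shares of members were below the shares of all genes in either direction. The members were Pcdhga1, the gamma gene nearest the beta cluster, and Pcdhgb4. DESeq2 called 5 members, all lower (Pcdhga1, Pcdhga2, Pcdhga5, Pcdhga8 and Pcdhgb4), beside 15.8% of all genes.

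Pcdhga1 fell from 10.7, 9.32 and 12.6 CPM in moderate to 6.75, 5.11 and 6.08 CPM in fortified mutant libraries. The fall was 0.86 on the log2 scale, a log2 fold change of -0.86 (SE 0.215, adjusted p 0.0397 by edgeR). Among wild type libraries it was at 7.25, 8.07 and 8.26 CPM in moderate and 7.16, 5.73 and 7.20 CPM in fortified libraries (-0.23, SE 0.213, adjusted p 0.568). The moderate mutant libraries were the highest of the 12 for this gene. The call was lost without any one of the 6 mutant libraries (adjusted p 0.0683 to 0.139), without fortified wild type 1 (0.0523) and without fortified wild type 3 (0.0566). Without the 3 libraries that stood apart it was -0.72 (adjusted p 0.132).

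Pcdhgb4 fell from 15.9, 12.4 and 12.1 CPM in moderate to 7.00, 5.78 and 6.24 CPM in fortified mutant libraries (-1.08, SE 0.294, adjusted p 0.0486 by edgeR). Among wild type libraries it was at 5.10, 11.6 and 11.1 CPM in moderate and 11.0, 9.36 and 8.07 CPM in fortified libraries (0.03, SE 0.291, adjusted p 0.962). Moderate wild type 1 was the lowest of all 12 libraries for Pcdhgb4, while the other moderate wild type libraries lay above all fortified ones. The call was lost without any one of the 6 mutant libraries (adjusted p 0.0900 to 0.154) and without fortified wild type 1, 2 or 3 (0.0618, 0.0637 and 0.0631). Without the 3 libraries that stood apart it was -0.98 (adjusted p 0.0709).

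Of the gamma A genes Pcdhga8 had the widest range over the 12 libraries. It was at 2.90, 15.8 and 21.1 CPM in moderate wild type, 21.8, 18.9 and 26.5 in moderate mutant, 11.4, 8.18 and 8.45 in fortified wild type, and 8.29, 4.90 and 3.78 CPM in fortified mutant libraries. In 5 of 6 moderate libraries it was above all fortified libraries, while moderate wild type 1 was the lowest of the 12. Its share of gamma A counts was 3.11% in moderate wild type 1, 13.4 to 22.2% in the other moderate libraries and 4.14 to 7.57% in the fortified ones. In mutant cells the log2 fold change was -1.99 (SE 0.551, adjusted p 0.0522 by edgeR and 0.00342 by DESeq2).

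Averaged over the genotypes (a mean of both folic acid comparisons), fortified against moderate folic acid gave 2 members that passed by edgeR, both lower, beside 17.8% of all tested genes (8.86% lower and 8.90% higher). At an unadjusted p of 0.05 there were 6 members, beside 33.9% of all genes. The log2 fold change was positive in 28 of 54 members, beside 50.0% of all genes. Pcdhga8 fell by 1.25 on the log2 scale (SE 0.382, adjusted p 0.0432) and Pcdhga1 fell by 0.55 (SE 0.151, adjusted p 0.0299). DESeq2 called 3 members, these and Pcdhgb4, beside 24.3% of all genes. Without moderate wild type 1 edgeR called 5 members, adding Pcdhac2, Pcdhga6 and Pcdhgb4, with adjusted p 0.00128 for Pcdhga8. The call of Pcdhga8 held only without that library or without fortified mutant 1 (0.0443), and was otherwise lost (0.0629 to 0.0987). The call of Pcdhga1 was lost without moderate mutant 1 (0.0640) or 3 (0.0804), fortified mutant 2 (0.0608) and fortified wild type 2 (0.0597) or 3 (0.0569). Averaged over folic acid, mutant against wild type gave 0 members and 0% of all genes by edgeR, with 1 member at an unadjusted p of 0.05 beside 4.64% of all genes, and 0 members and 0.131% of all genes by DESeq2. Of the 54 members 37 were positive, beside 44.7% of all genes.

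**Figure D4:**
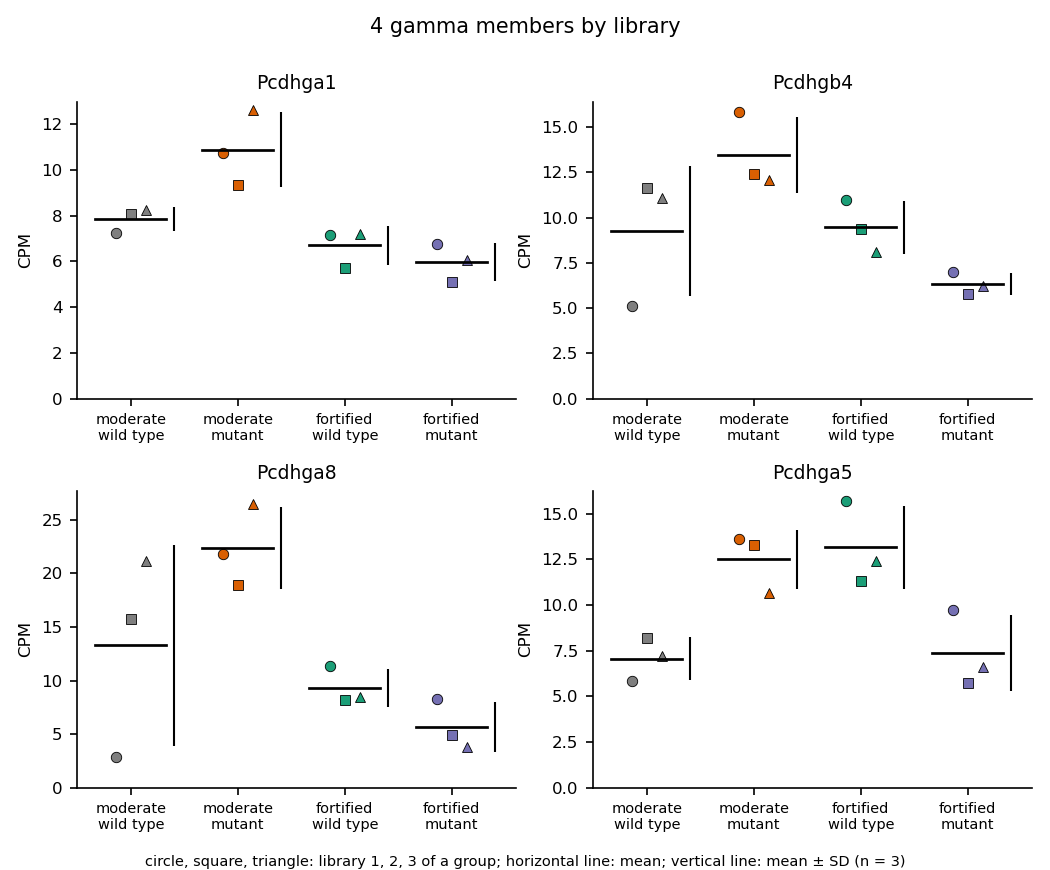
CPM of Pcdhga1, Pcdhgb4, Pcdhga8 and Pcdhga5 by library, with group means (horizontal lines) and SDs (vertical lines, n = 3). Pcdhga1, Pcdhgb4 and Pcdhga8 are higher in all moderate mutant than in all fortified mutant libraries, moderate wild type 1 is lowest of its group for all 4, and Pcdhga5 is high in moderate mutant and fortified wild type libraries.

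The C-type genes did not separate the genotypes at moderate folic acid. Pcdhgc3 was at 208, 315 and 179 CPM in moderate wild type, 269, 267 and 237 in moderate mutant, 365, 295 and 275 in fortified wild type and 235, 196 and 245 CPM in fortified mutant libraries. The groups overlapped at moderate folic acid (log2 fold change 0.14, SE 0.207, adjusted p 0.903 by edgeR) and not at fortified folic acid (-0.47, SE 0.207, adjusted p 0.939). Removing Pcdhgc3 from the gamma sum left log2 ratios of 0.45 and -0.48, with neither pair of groups overlapping. That reduced sum can also depend on how shared reads were divided.

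Pcdhgb6 and Pcdhgb5, the leading B-type genes, were highest in different groups, a difference that was not tested. Pcdhgb6 was at 16.4, 17.5 and 13.2 CPM in moderate wild type, 18.0, 18.9 and 18.9 in moderate mutant, 26.6, 22.3 and 23.0 in fortified wild type and 18.9, 15.4 and 18.8 CPM in fortified mutant libraries. Its fortified wild type libraries were the highest of the 12. Pcdhgb5 was at 11.4, 18.8 and 15.1 CPM in moderate wild type, 22.1, 17.4 and 20.4 in moderate mutant, 18.2, 15.4 and 15.4 in fortified wild type and 12.7, 13.0 and 16.2 CPM in fortified mutant libraries. Its highest levels were in moderate mutant libraries 1 and 3, and neither gene passed by edgeR in any comparison. For fortified against moderate folic acid, DESeq2 called Pcdhgb6 in wild type cells (log2 fold change 0.59, SE 0.158, adjusted p 0.00695). Limma on log2(TPM + 1) and on log2(TPM + 0.1) called Pcdhgb5, as lower, in mutant cells.

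Pcdhgc5, a C-type gene known for its late rise in the brain, was at 7.81, 14.7 and 5.21 CPM in moderate wild type and 14.1, 10.9 and 7.20 CPM in moderate mutant libraries. It was at 20.4, 14.5 and 19.6 CPM in fortified wild type and 11.8, 7.62 and 8.34 CPM in fortified mutant libraries, which did not overlap (-0.97, SE 0.370, adjusted p 0.939 by edgeR). Pcdhgc4 was at 5.78, 3.24 and 1.33 CPM in moderate wild type, 3.52, 3.04 and 2.08 in moderate mutant, 6.46, 2.43 and 2.23 in fortified wild type and 2.40, 3.00 and 5.03 CPM in fortified mutant libraries, with overlap in all 4 comparisons. Its highest values were in fortified wild type 1 and moderate wild type 1.

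Pcdhac2 was at 4.98, 1.34 and 1.08 CPM in moderate wild type, 1.71, 2.57 and 3.55 in moderate mutant, 4.39, 3.33 and 4.41 in fortified wild type and 6.22, 3.56 and 4.74 CPM in fortified mutant libraries. In mutant cells the fortified libraries lay just above the moderate ones (log2 fold change 0.89, SE 0.530, adjusted p 0.320 by edgeR). Among wild type libraries moderate wild type 1 lay above all fortified libraries and the other 2 moderate libraries below them.

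In CPM, the rest of the alpha cluster was highest in the libraries that stood apart. The sum of the 12 alpha genes without Pcdhac1 and Pcdhac2 was 9.67 CPM in moderate wild type 1, 7.68 in fortified mutant 2 and 6.51 in fortified mutant 3. In the other 9 libraries it ran from 2.06 to 6.28 CPM, with the moderate mutant libraries at 4.65 to 6.28 CPM and the fortified wild type libraries at 2.06 to 3.36 CPM. In TPM the order differed: moderate wild type 1 (4.09) was still highest, but moderate mutant 2 (2.79) lay above fortified mutant 2 (2.53) and 3 (2.36), and moderate mutant 1 (2.42) lay above the last. Of the 20 neuron markers 18 were higher in all 3 libraries that stood apart than in every other library, the exceptions being Tubb3 and Map2. These libraries were described as apart by the sum of this same list, so the count is not separate evidence. The neuron marker Stmn2, a tubulin regulator, was at 44.6, 45.3 and 26.6 CPM in the same 3 libraries and at 8.64 to 12.1 CPM in the others. Rbfox3, a nuclear protein of mature neurons, was at 7.66, 4.68 and 3.26 CPM against 0.360 to 2.80 CPM. Map2, a microtubule protein of dendrites, was highest in moderate wild type 3 (147 CPM) and 2 (138 CPM). The summed skeletal muscle markers were also highest in these 3 libraries, as were 9 of the 20 singly. So were the sums of neural progenitor and glia markers (3 of 14 singly) and of epithelium markers (1 of 10 singly). The part of any of these cell types in the alpha level was not tested.

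The sum of all 14 alpha genes was 14.7, 3.93 and 4.61 CPM in moderate wild type, 7.12, 8.94 and 8.31 in moderate mutant, 7.83, 5.39 and 7.40 in fortified wild type and 8.35, 11.2 and 11.3 CPM in fortified mutant libraries. The groups did not overlap at fortified folic acid, where the log2 ratio of mutant to wild type was 0.58. In TPM they did overlap. Of single alpha genes, 2 had every mutant library above every wild type library there, beside 4.66% of all tested genes. The summed ratio was 0.28 without the 3 libraries that stood apart. At moderate folic acid it was 0.07, and 0.93 without moderate wild type 1, which alone sets the spread of its group.

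Of the alpha genes with the smallest p, Pcdha5 was at 0.909, 0.103 and 0.528 CPM in moderate wild type and 0.791, 1.07 and 1.20 CPM in moderate mutant libraries (log2 fold change 0.98, SE 0.718, adjusted p 0.777 by edgeR). Pcdha11 was at 0.153, 0 and 0.0873 CPM in fortified wild type and 0.0633, 0.647 and 0.774 CPM in fortified mutant libraries (adjusted p 0.939). Its log2 fold change was 2.58 with all libraries and -0.35 without the 3 that stood apart. Pcdha7, with the smallest alpha p between folic acid levels in wild type cells, was listed at 0 in all fortified wild type libraries and at 1.58, 0 and 0.459 CPM in moderate wild type libraries, so no fold is given. Pcdha12, the alpha gene of the highest level after Pcdhac2, was at 2.42, 1.34 and 0.918 CPM in moderate wild type and 0.894, 0.725 and 0.589 CPM in fortified wild type libraries, wholly below (-1.08, SE 0.478, adjusted p 0.239).

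In CPM the summed beta cluster overlapped between groups in all 4 comparisons. The sum was 72.6, 39.9 and 45.4 CPM in moderate wild type, 69.9, 63.9 and 60.3 in moderate mutant, 64.3, 53.7 and 69.7 in fortified wild type and 68.1, 59.0 and 60.6 CPM in fortified mutant libraries. The log2 ratio of mutant to wild type was 0.30 at moderate and -0.00109 at fortified folic acid, and the sign of the latter turned under other scalings. The former was 0.60 when replicate 1 of moderate wild type was left out and 0.13 when replicate 2 was. In TPM the moderate mutant libraries (48.9, 43.9 and 38.3) lay wholly above the fortified mutant ones (35.7, 30.2 and 34.0). In that comparison the TPM scale moved genes in general downwards. By limma on log2(TPM + 1) the median log2 fold change was -0.23 for all tested genes and -0.22 for tested beta genes. On log2(TPM + 0.1) these medians were -0.30 and -0.43.

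At moderate folic acid 20 of 21 tested beta genes had a positive log2 fold change in mutant cells (median 0.26), beside 43.6% of all tested genes. In 3 of them the mutant libraries lay wholly above, beside 6.34% of all tested genes. Moderate wild type 2 and 3 had the lowest beta sums of the 12 libraries, and moderate wild type 1 the highest. At fortified folic acid 8 of 21 were positive (median -0.04), beside 51.0% of all tested genes, and 1 had its mutant libraries wholly above, beside 4.66%.

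Pcdhb17, the leading beta gene, was at 10.9, 8.23 and 8.70 CPM in moderate wild type, 12.9, 11.2 and 10.2 in moderate mutant, 11.1, 9.27 and 10.2 in fortified wild type and 9.78, 10.3 and 9.70 CPM in fortified mutant libraries. Its mean over groups thus stayed between 9.28 and 11.4 CPM, and no pair of groups was apart. Pcdhb22 was at 8.52, 4.14 and 5.21 CPM in moderate wild type, 9.06, 8.14 and 5.70 in moderate mutant, 8.62, 7.64 and 8.31 in fortified wild type and 8.81, 7.85 and 6.86 CPM in fortified mutant libraries. Pcdhb20 was at 4.91, 2.57 and 3.19 CPM, 5.14, 4.85 and 4.50 CPM, 4.91, 3.83 and 5.43 CPM, and 6.58, 4.45 and 4.76 CPM in the same order. For both the groups overlapped in all 4 comparisons, and the lowest values were in moderate wild type 2 and 3.

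The beta gene with the smallest p at moderate folic acid was Pcdhb14, with 2.53, 1.75 and 2.23 CPM in wild type and 3.58, 3.24 and 2.95 CPM in mutant libraries (0.59, SE 0.326, adjusted p 0.686 by edgeR). At fortified folic acid it was Pcdhb10, with 0.327, 0.317 and 0.306 CPM in wild type and 0.337, 0.712 and 0.706 CPM in mutant libraries (0.88, SE 0.495, adjusted p 0.939). For both the mutant libraries lay wholly above. Between folic acid levels Pcdhb19 in wild type cells (0.57, SE 0.300, adjusted p 0.317) and Pcdhb13 in mutant cells (-0.77, SE 0.646, adjusted p 0.491) had the smallest p, and their groups overlapped.

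**Figure D5:**
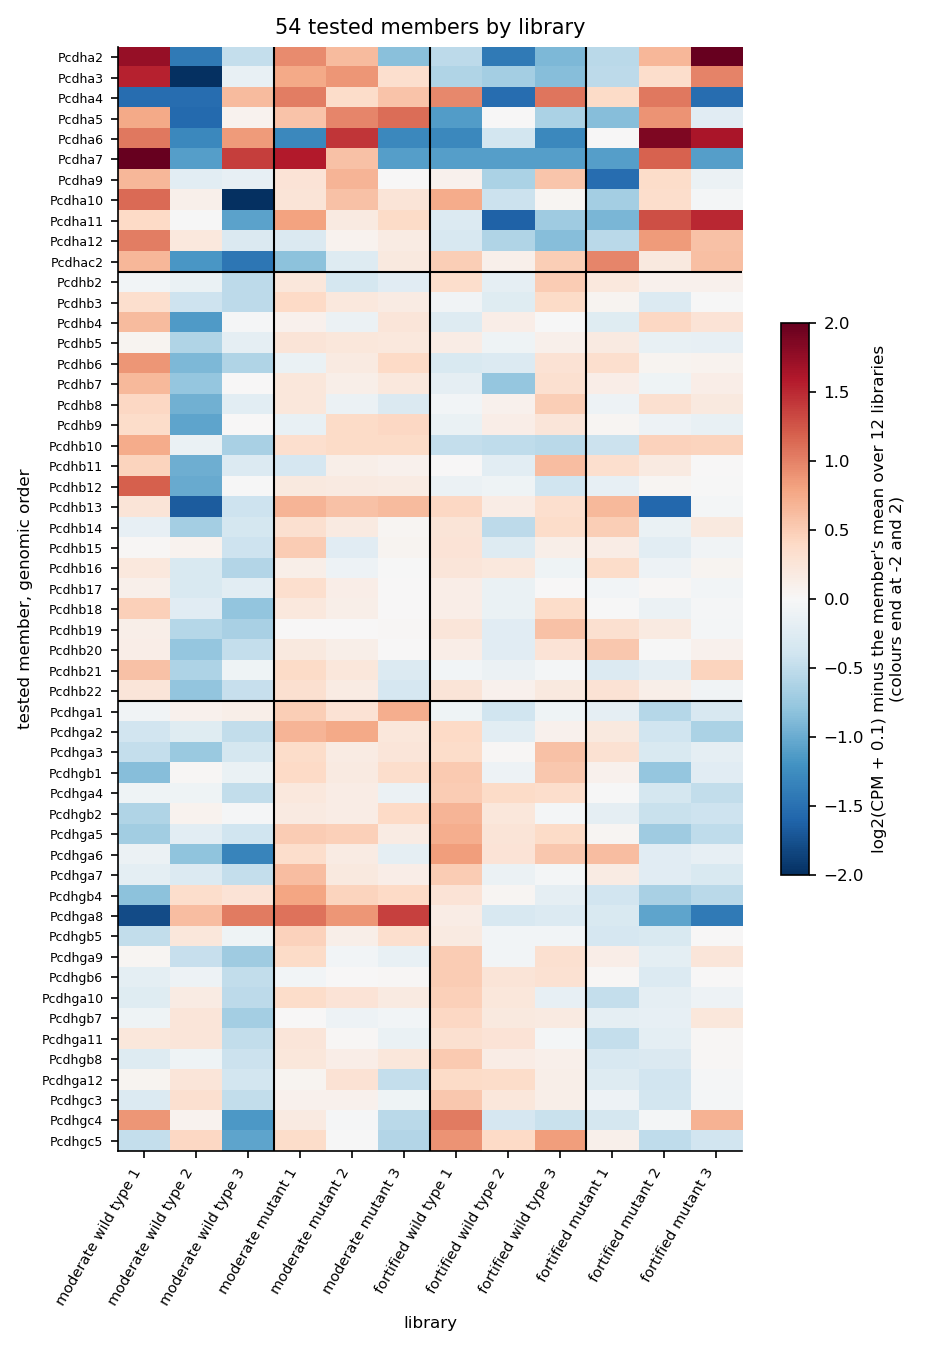
Log2(CPM + 0.1) of the 54 tested members, each minus its own mean over the 12 libraries, with genes in genomic order and libraries by group. Gamma genes tend to be red in moderate mutant and fortified wild type libraries and blue in moderate wild type and fortified mutant libraries. Single libraries depart from this. In the moderate wild type library with the highest gamma sum many gamma genes are red, and replicate 1 of fortified mutant holds both colours. Alpha genes tend to be red in the 3 libraries that stood apart, replicate 1 of moderate wild type among them.

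Genes that act on the clusters, act with the proteins or lie beside them were taken from 5 lists with 90 tested genes. In the comparisons of genotype edgeR called 0 of the 90 at each folic acid level, with 7 and 2 at an unadjusted p of 0.05, beside 7.87% and 3.29% of all tested genes. DESeq2 called 1 at moderate and 0 at fortified folic acid, beside 0.290% and 0.0363% of all genes. In wild type cells fortified against moderate gave 0 by edgeR, 16 at an unadjusted p of 0.05 and 4 by DESeq2, beside 0.0263%, 19.6% and 7.77% of all genes. In mutant cells edgeR called 5 and DESeq2 14, beside 6.93% and 15.8% of all genes. Averaged over genotypes edgeR called 12 and DESeq2 21, beside 17.8% and 24.3%. Apart from the 1 gene that DESeq2 called by genotype at moderate folic acid, these shares of the 90 genes were near or below those of all genes. The genes named next are therefore given as values only.

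Of the 11 tested genes of cohesin, its loaders and CTCF, 0 rose and 1 fell in fortified mutant cells, where 4.19% of all tested genes rose and 2.74% fell. This was Nipbl, the cohesin loader, with 220 CPM ± 14.7 in moderate and 145 ± 26.7 in fortified mutant libraries (-0.60, SE 0.160, adjusted p 0.0468). Ctcf itself was at 83.9 CPM ± 13.6, 92.0 ± 1.99, 75.8 ± 5.86 and 84.1 ± 14.4 in moderate wild type, moderate mutant, fortified wild type and fortified mutant libraries. Of 18 genes of chromatin repression and DNA methylation, 0 rose and 2 fell in fortified mutant cells. These were Tet3, which oxidises methylated cytosine (-0.86, SE 0.174, adjusted p 0.0229), and Wiz, a partner of histone H3K9 methyltransferases (-0.68, SE 0.148, adjusted p 0.0277). Smchd1 was at 116 CPM ± 20.0, 109 ± 12.9, 101.4 ± 9.26 and 103 ± 21.2 in the same order of groups.

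Of 20 proteases and signalling partners of protocadherins, 0 passed in mutant cells by edgeR. Averaged over genotypes 1 of these rose and 1 fell, beside 8.90% and 8.86% of all genes: Wasf2 (0.37, SE 0.112, adjusted p 0.0418) and Nckap1 (-0.43, SE 0.132, adjusted p 0.0445), both parts of the actin-regulating WAVE complex that some protocadherins bind. In that average 2 of 11 cohesin and CTCF genes, 3 of 18 chromatin genes and 1 of 11 protocadherins outside the clusters fell, and of 30 genes beside the clusters 3 rose and 1 fell. Of 11 tested protocadherins outside the clusters 1 fell in fortified mutant cells, beside 2.74% of all genes: Pcdh11x (-1.51, SE 0.269, adjusted p 0.0161 by edgeR). Its level went from 19.2 CPM ± 5.54 to 6.77 ± 0.905. Of 30 tested genes beside the clusters 1 rose in fortified mutant cells, against 4.19% of all genes. It was Ndfip1, an adaptor of ubiquitin ligases (1.01, SE 0.187, adjusted p 0.0176 by edgeR), which lies 568523 bases from the clusters. Genes on this list lay up to 1068496 bases away (Cxxc5). Taf7, which lies between beta and gamma, was at 13.5 CPM ± 8.35, 12.8 ± 0.544, 8.80 ± 2.50 and 16.4 ± 4.18 and did not pass in any of the 7 comparisons by edgeR.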

How the data were processed

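The authors deposited a table of expected counts (estimated counts per gene) and a table of TPM, both made by salmon per the file names, with the genome mm10 per the submitters' processing notes. Neither a salmon version nor an annotation is named there. Libraries came from polyadenylated RNA and a Tecan Universal Plus mRNA-Seq kit, per the labels' protocols. Columns were assigned to libraries through the numbers in the sample descriptions, as their own names hold unexplained letters (B, P).

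Expected counts were rounded, genes were filtered by filterByExpr (minimum count 10, minimum total 15; 15186 genes tested), and libraries were scaled by TMM (factors 0.91 to 1.08). CPM are per 1000000 scaled counts. All 12 libraries entered 1 edgeR 4.0.16 quasi-likelihood fit (R 4.3.3) with a mean per group. Adjusted p are Benjamini-Hochberg over all 15186 genes, with a threshold of 0.05. At this depth counting error, which leaves out the division of shared reads, is small for gamma genes beside the spread between libraries. Within groups their coefficient of variation was 9.90% (Pcdhgb6) to 53.6% (Pcdhgc4). The common one of the fit, over all tested genes, was 0.332. SDs are between the libraries named.

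Members and lists were chosen with earlier results of these data known. Members given in full were the C-type genes, the 3 of highest TPM in each cluster, those that passed, and the smallest p per cluster and comparison. Genes of other lists were named if they passed, had the smallest p or a result turned on them. Alternatives were DESeq2 1.42.0, limma 3.58.1 on log2(TPM + 1) and log2(TPM + 0.1), other scalings and filters, a replicate block, Xist as covariate, and leaving out libraries. The procedure was tested on simulated counts. Annotation was GENCODE M21.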

Additional observations from a re-analysis of the deposited data

Results flagged for a closer look

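The summed gamma A genes differed between mutant and wild type cells in opposite directions at the 2 folic acid levels, with every mutant library above every wild type library at moderate folic acid (log2 ratio 0.54) and below at fortified folic acid (-0.46). The summed gamma B genes did the same (0.37 and -0.44), and so did the gamma cluster without Pcdhgc3 (0.45 and -0.48). The difference between the folic acid levels was not tested for these sums. As sums of part of a cluster, they can depend on how shared reads were divided among its members. The sum of the whole gamma cluster overlapped between genotypes at moderate folic acid (log2 ratio 0.28) and not at fortified folic acid (-0.47). Of the single gamma genes 0 passed the interaction by edgeR, with 13 at an unadjusted p of 0.05, and DESeq2 called 1, Pcdhga5.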

How the results depend on the processing

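At 3 libraries a group, few single members could be told from the spread between libraries, and the split of shared reads limits single alpha and gamma genes. Members called by edgeR, fortified against moderate in mutant cells, numbered 2, but 5 by DESeq2, 7 by limma on log2(TPM + 1), 7 on log2(TPM + 0.1), 0 with no filter on low counts, 1 without the 3 libraries that stood apart and 0 to 3 without single libraries. In wild type cells the count was 0, but 5 by DESeq2, 4 without the 3 libraries and 0 to 2 without single libraries. For the average over genotypes it was 2, but 4 without the 3 libraries and 0 to 5 without single libraries. The interaction gave 0, and 1 by DESeq2. The genotype comparisons and their average gave 0 under all alternatives run. Leaving out the 3 libraries leaves 1 fortified mutant library, whose spread is then taken from the other groups. TPM shifted the median of all genes, in mutant cells from 0.04 to -0.23 and -0.30 on the log2 scale for pseudocounts of 1 and 0.1. The gamma median went from -0.37 to -0.58 and -0.70, and the alpha median from -0.34 to -0.09 and -0.50. The beta median went from -0.11 to -0.22 and -0.43.

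The summed alpha level, fortified against moderate in mutant cells, had a log2 ratio of 0.34, but 0.00463 by TPM and 0.0399 without the 3 libraries (0.26 to 0.48 without single libraries). In wild type cells it was -0.17, but 0.69 without the 3 libraries (-0.49 to 0.69 without single libraries, the highest without moderate wild type 1). Mutant against wild type it was 0.58 at fortified folic acid, 0.28 without the 3 libraries (0.44 to 0.72), and 0.07 at moderate folic acid, 0.93 without the 3 libraries (-0.25 to 0.93). The beta ratio in mutant cells was -0.05, but -0.39 by TPM and 0.0727 without the 3 libraries (-0.11 to 0.0101). Mutant against wild type at fortified folic acid it was -0.00109, but 0.00729 by median-of-ratios scaling, 0.0596 by library totals and 0.121 without the 3 libraries (-0.0995 to 0.0836). At moderate folic acid the genotype ratio was 0.30 for beta (0.13 to 0.60 without single libraries) and 0.28 for gamma (0.17 to 0.49). The gamma ratio in mutant cells was -0.33, but -0.67 by TPM. Pcdha11 at fortified folic acid turned to -0.35 without the 3 libraries. Pcdhgc3, mutant against wild type at moderate folic acid, had a log2 fold change of 0.14, which ran from -0.0201 to 0.41 when single libraries were left out (replicates 3 and 2 of moderate wild type). The cause of these changes was not tested. Leaving single libraries out aside, 103 values of counts and cluster sums and 198 of single genes and gamma subtypes were kept. Kept means the same direction and side of the threshold, or a move less than the spread. A count of members was also taken as kept after a small change, such as from 2 to 3. Of the former values 5 reversed, 6 moved by the spread or more, 7 grew stronger and 3 weaker. Of the latter these were 1, 3, 11 and 9. Under this rule a gene far from the threshold is kept easily, so the totals say little of the members that passed.

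Replicate numbers gave little sign of pairing: 4 of 18 same-numbered pairs correlated above 0.1 (range -0.48 to 0.24), and 3 of 12 libraries correlated best with their own number. Pairing is not excluded by this, since deviations from a mean of 3 libraries depend on each other. With the replicate block the members called in mutant cells went from 2 to 0 and all genes called from 1053 to 559; the average over genotypes gave 2 members, Pcdhga1 and Pcdhga6, and the other counts of members were 0.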
